A study of Mus musculus with 18 samples.

Results

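The 4 nuclear factor I genes of the mouse, Nfia, Nfib, Nfic and Nfix, were examined as places where the proteins NFIA and NFIB themselves sit on the chromatin while medulloblastoma, a tumor of the cerebellum, forms. They are 4 of the 20665 protein-coding genes on the 19 autosomes, and they were chosen by name. CUT&Tag was used, an assay that brings a transposase to a protein on chromatin by means of an antibody and sequences the DNA cut there. The data were lists of summits, the single bases at which the authors' peak caller placed the top of each peak. There were 18 libraries, with 3 preparations of each of 3 stages and an NFIA and an NFIB library from each preparation. The stages were granule neuron progenitors (GNPs) from cerebella at postnatal day 7, hyperplasia at postnatal day 28, which the protocol calls PNCs, and medulloblastoma of adult mice. All cells came through a Percoll gradient, with 100000 cells per library, and none was sorted by a marker. The design text names a genetically engineered mouse model, whose alleles and strain it does not give, and a cell line that is not analysed here. Age changes together with stage, so that age and stage cannot be told apart, and nothing in the labels says that the preparations of a stage came from separate animals, so p-values measure only the spread between these preparations.

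Nuclear factor I proteins bind DNA as dimers, through a domain that is nearly the same in all family members, at a palindrome made of TTGGC, 5 bases of any kind and GCCAA, and more weakly at one side of it, TTGGC or GCCAA. In the developing nervous system NFIA and NFIB are known for switching progenitors from making neurons to making glia, and in cerebellar granule neurons NFI proteins take part in migration, dendrite formation and synapse maturation. NFIX is known for its part in neural stem cell quiescence and in fetal muscle, and NFIC for tooth root formation. The libraries were made against NFIA and NFIB, so Nfia and Nfib are the genes of the assayed proteins, and Nfic and Nfix those of their relatives. The antibodies, and what they bind beyond their named target, are not described in the labels.

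RefSeq promoters of GRCm38.p6 (250 bases before to 50 after a listed start) were matched for Nfia, Nfic and Nfix, with 1, 1 and 4 listed starts. They are shown because summits lay at the start of Nfia and close to a start of Nfix, and capitals mark TTGGC or GCCAA, read on both strands. The Nfia window, on the + strand at chr4:97581693-97581992, holds neither motif. The first 2 Nfix windows lie on the − strand. The one at chr8:84772826-84773125 holds GCCAA and TTGGC in that order, at positions 246 and 254 counted from 1 at its 5′ end, and the one at chr8:84773361-84773660 holds TTGGC at position 279.
Nfia promoter: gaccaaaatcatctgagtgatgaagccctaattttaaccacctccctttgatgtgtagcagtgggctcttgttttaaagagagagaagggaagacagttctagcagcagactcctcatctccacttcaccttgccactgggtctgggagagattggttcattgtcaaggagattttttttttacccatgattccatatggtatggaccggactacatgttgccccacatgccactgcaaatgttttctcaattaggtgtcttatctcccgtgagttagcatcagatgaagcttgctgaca
Nfix promoter 1: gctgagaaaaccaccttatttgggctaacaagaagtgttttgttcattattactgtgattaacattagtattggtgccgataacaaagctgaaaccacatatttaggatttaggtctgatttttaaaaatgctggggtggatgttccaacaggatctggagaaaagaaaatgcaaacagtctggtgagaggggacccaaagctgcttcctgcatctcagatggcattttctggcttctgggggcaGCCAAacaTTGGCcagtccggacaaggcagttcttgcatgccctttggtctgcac
Nfix promoter 2: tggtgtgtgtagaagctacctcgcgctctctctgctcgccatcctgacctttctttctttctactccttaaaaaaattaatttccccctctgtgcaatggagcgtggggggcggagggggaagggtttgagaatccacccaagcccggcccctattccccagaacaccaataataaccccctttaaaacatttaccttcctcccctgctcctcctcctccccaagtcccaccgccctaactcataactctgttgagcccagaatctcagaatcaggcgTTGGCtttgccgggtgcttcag

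Of these windows only that of Nfia held summits, and it did so in 12 of the 18 libraries, 5 of GNP, 2 of hyperplasia and 5 of tumor. As many libraries or more were found in 9.36% of the 31396 windows of this length on autosomes, and 67.1% of windows held a summit in no library. The Nfic window, the 2 Nfix windows shown and the other 2 Nfix windows held a summit in 0 of 18 libraries. Of the 2 remaining Nfix windows, one holds TTGGC once and the other neither motif, and neither is in the Nfic window. TTGGC or GCCAA occurs in 46.7% of all windows and at least 2 of them in 14.4%, while the palindrome occurs in 0.0382% and in none of the 6 windows of the NFI genes. A match is a description of letters and does not mark a bound site.

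In each library the 30000 autosomal summits with the highest scores were kept, because the deposited lists held between 49948 and 385466 summits and their lengths do not measure binding. A score is the authors' −log10 of a p or q value, and the lowest kept score ran from 3.46 to 9.84 between libraries. The depth of the libraries is unknown, since reads were not used. Kept summits within 100 kb of a protein-coding gene were given to the nearest gene span, and 62.9% of them lay inside a span. In 6 libraries the deposited name carries the other target than the title, which was used here. In 12 libraries it carries another replicate number, so which libraries form a preparation also rests on the titles. Grouping by the deposited numbers was not among the alternatives fitted. The second NFIA library of hyperplasia stood apart. Its overlap with the other libraries of its stage averaged 0.471 (Jaccard index of the merged regions described below). The other libraries had 0.544 to 0.641 within their own stages, and those of hyperplasia 0.572 to 0.596. In the library that stood apart 20.4% of the kept summits shared the score of the last one kept. Cell identity could not be checked from markers, because summits are not expression. Summits were listed at all 7 granule progenitor marker genes, at 3 of 4 astrocyte genes (Aqp4 had none), at all 4 oligodendrocyte genes, at both vessel genes, and at all 3 microglia genes, the highest of which had a mean of 0.778 per preparation. The summed summits of the granule progenitor genes ran from 48 to 55 in GNP, from 32 to 37 in hyperplasia and from 44 to 47 in tumor preparations, and those of the astrocyte genes from 15 to 17, from 15 to 19 and from 9 to 14. Those of the oligodendrocyte genes ran from 22 to 27, from 18 to 28 and from 24 to 25, those of the vessel genes from 5 to 10, at 5 in each and from 7 to 8, and those of the microglia genes from 0 to 1, from 1 to 4 and from 1 to 3. Their part in the results below was not tested, and a smaller share of cells of a type and less binding per cell cannot be told apart in such samples.

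All 4 NFI genes carried summits in every library of either target. Together they held 1044 of the kept summits, 0.193% of them, with 43 to 67 in a library and the lowest number in the library that stood apart. Nfia held 26.3 ± 4.04 summits per library (SD, n = 18 libraries), Nfib 14.5 ± 3.13, Nfix 9.06 ± 1.80 and Nfic 8.11 ± 1.97, so that Nfix and Nfic differed by less than their spread. By number of summits Nfia was the fifth gene of the genome, after Gse1 with 38.6 per library, Camta1 with 33.8, Auts2 with 33.3 and Nav2 with 28.4. Nfib was at rank 67, Nfix at 268 and Nfic at 353 of the 20665 genes.

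Per length Nfic and Nfix came before Nfia and Nfib. The length used was the stretch for which a gene is the nearest one, up to 100 kb away. On that scale Nfic held 16.2 summits per 100 kb and library, Nfix 8.79, Nfia 3.55 and Nfib 3.48, against a median of 2.74 over the 8589 genes tested. Nfic stood at the 97.6th percentile of these genes, Nfix at the 91.3th, Nfia at the 61.7th and Nfib at the 60.7th. Nfia and Nfib, with stretches of 741 and 417 kb, thus lay nearer the middle of the genes tested than Nfix, with 103 kb, and Nfic, with 50 kb. Counting only inside the gene span, Nfic held 16.6 summits per 100 kb, Nfix 9.38, Nfia 4.52 and Nfib 3.13, against a median of 2.58.

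**Figure D1:**
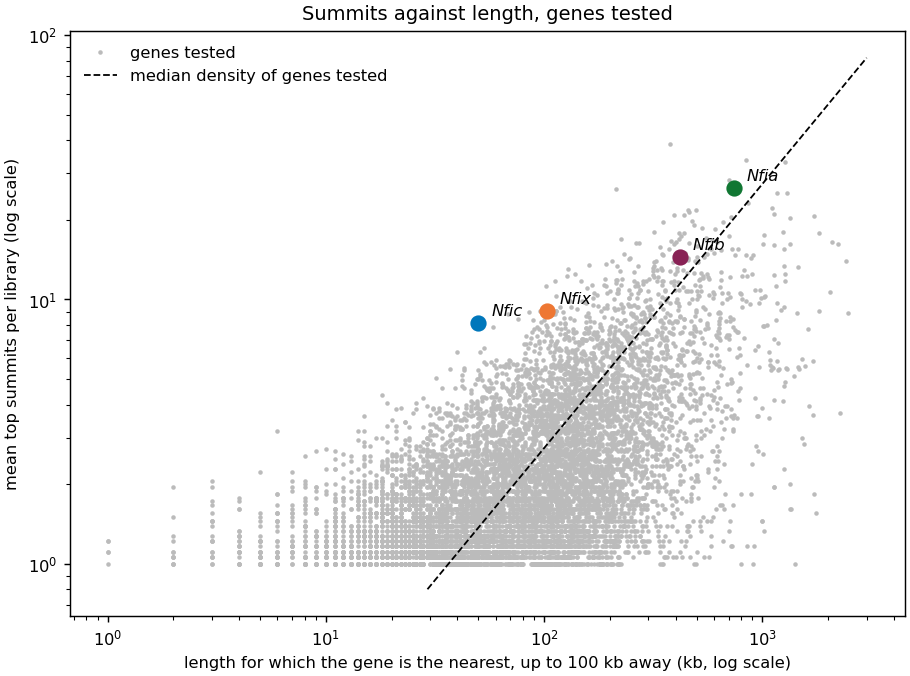
Mean number of kept summits per library (log scale) against the length for which a gene is the nearest (kb, log scale), for the genes tested (grey) and the 4 NFI genes. The dashed line is the median density of 2.74 summits per 100 kb, and Nfic (16.2) and Nfix (8.79) lie farther above it than Nfia (3.55) and Nfib (3.48).

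The strongest single summits were at Nfia and Nfix. The best summit at Nfia had a score of 19.5 in the lowest library, 37.5 in the median one and 61.9 in the highest, and it was among the first 1000 summits of its library in 16 of 18 libraries. The best at Nfix had scores of 18, 36.1 and 71.8, and was among the first 1000 in 13 libraries. At Nfic the scores were 10.2, 18.6 and 54.8 and at Nfib 9.78, 25.0 and 39.2, with the best summit among the first 1000 in 3 and in 1 library. The median rank of the best summit within its library was 440 at Nfia, 715 at Nfix, 2234 at Nfib and 3134 at Nfic.

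To follow places rather than numbers, kept summits were widened by 100 bp on each side and merged, and merged regions hit by at least 3 libraries were kept. The series had 41998 such regions and the NFI genes 76, of which 35 were at Nfia, 20 at Nfib, 12 at Nfix and 9 at Nfic. A summit was present in all 18 libraries in 19 of the 76 (25.0%), against 15% of the 37410 regions near a gene and 14.6% of all regions. These 19 were 8 at Nfia, 4 at Nfib, 4 at Nfix and 3 at Nfic. By the number of regions present in all 18 libraries Nfia was at rank 4 of the 20665 genes, with 5 genes at its number or above, itself included. That rank takes no account of length, and the stretch of Nfia is 741 kb. As a share of its own regions these were 22.9% at Nfia, 20% at Nfib and 33.3% at both Nfic and Nfix. At the other end, 19 of the 76 regions were hit by only 3 to 5 libraries. The share of all regions for this count is not given here, so it is no result about the NFI genes. The plot of libraries per region along each gene shows both kinds side by side.

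**Figure D2:**
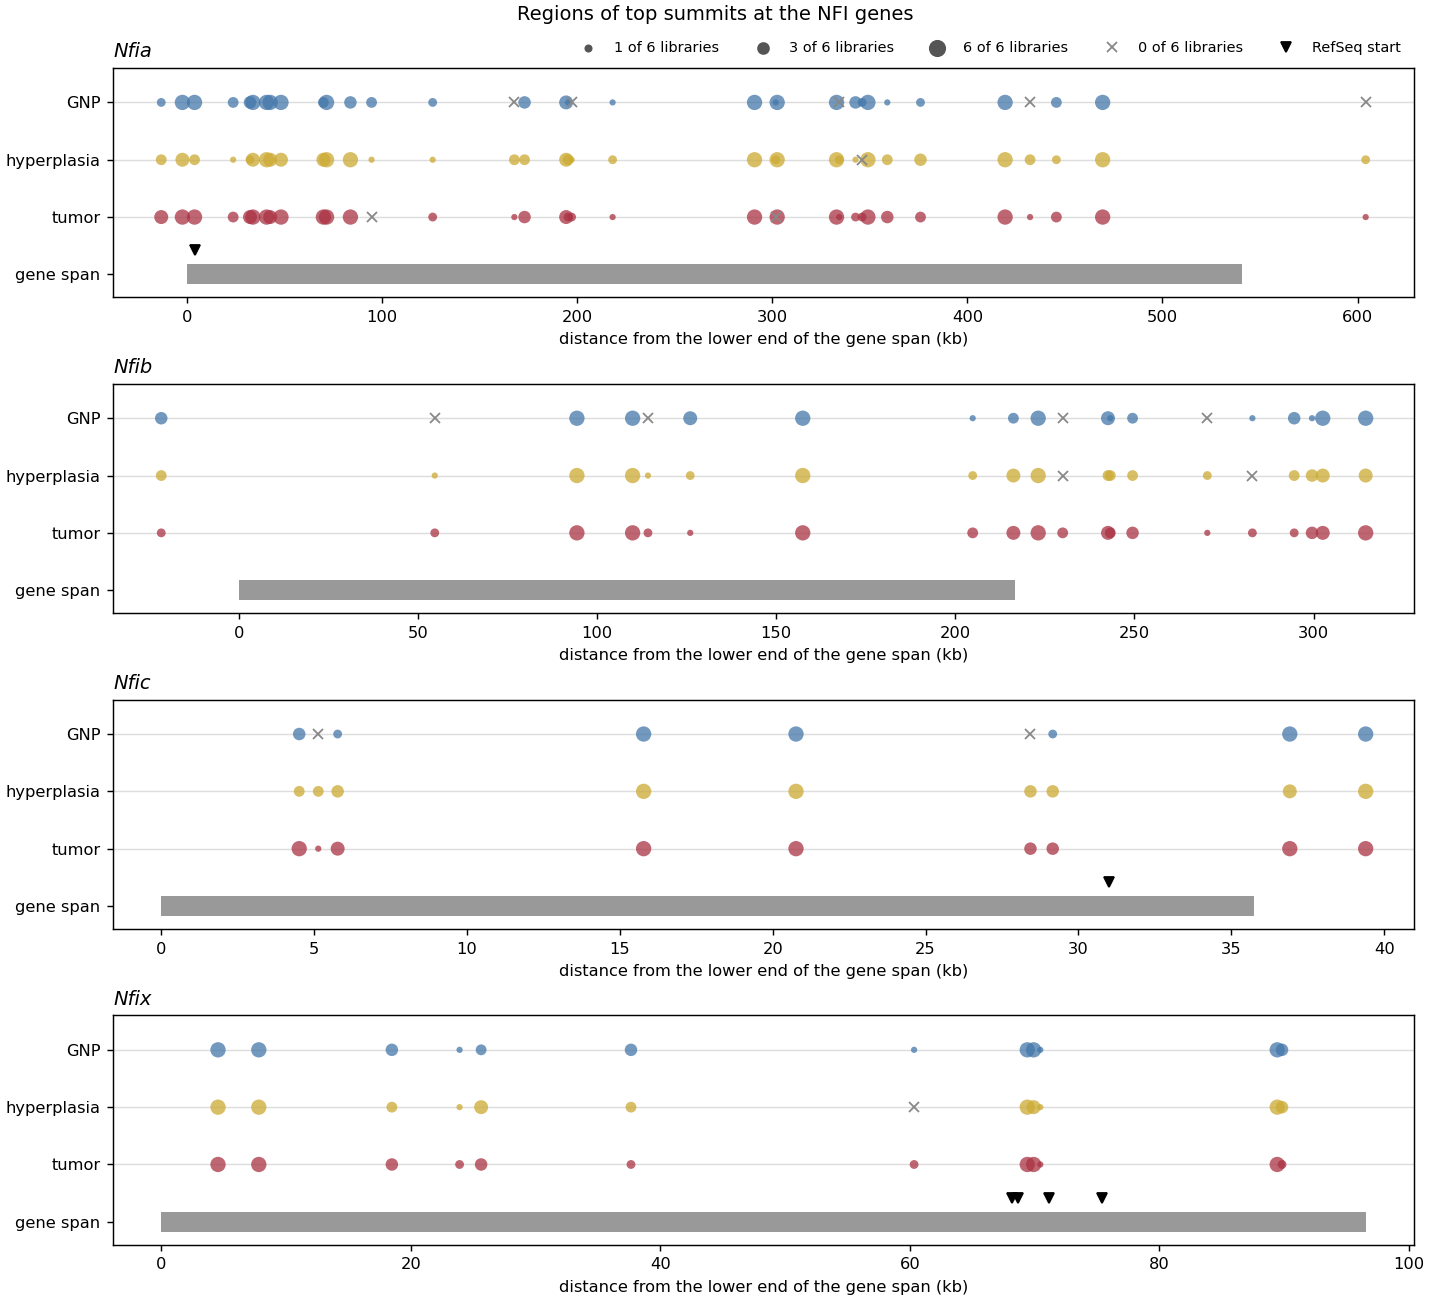
Regions of kept summits at each NFI gene by distance from the lower end of its span (kb), with 1 row per stage. Dot size is the number of the 6 libraries of a stage with a summit there, crosses mark 0 of 6, and triangles mark the RefSeq starts listed for Nfia, Nfic and Nfix. Of the 76 regions 19 have full-size dots in all 3 rows, and the regions of Nfib continue past the higher end of its span.

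Nfia spans chr4:97578066-98118876 (mm10, as all positions here) and has no protein-coding neighbour within 236 kb, the gaps being 791 kb to Gm12695 and 236 kb to Tm2d1. Of its 474 summits over all libraries 92.8% lay inside the span. The first 100 kb from the lower end held 10.1 summits per library and 11 of the regions. The stretch from 300 to 400 kb held 5.78 per library, and the other full stretches of 100 kb held between 2.44 and 3.06. In the last part, from 500 kb to the end, there were 2 summits in all 18 libraries together.

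The 3 regions of Nfia with the best worst rank among those present in all libraries were at chr4:97910817-97911185, chr4:97618649-97619209 and chr4:97649286-97650048. They lay 329056, 36863 and 67627 bp downstream of the listed start. Their best summits had median ranks of 713, 943 and 1566 among the 30000 of a library, and never fell below rank 2724, 2913 and 4108. At the start itself the region chr4:97581525-97582136, with its median summit 48 bp upstream, was hit by 15 libraries and had a median rank of 18046. It was hit in 6 of 6 GNP, 3 of 6 hyperplasia and 6 of 6 tumor libraries, which was neither a gain nor a loss by the rule used below. The start of Nfia was thus covered in most libraries but by summits far lower in the lists than those of the 3 regions inside the gene.

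For the stage comparisons the NFIA and NFIB libraries of a preparation were summed. Nfia had 48, 52 and 45 summits in the 3 GNP preparations, 54, 50 and 57 in the hyperplasia preparations and 54, 64 and 50 in the tumor preparations. The stages overlapped. The log2 fold change was 0.15 (SE 0.10) in hyperplasia against GNP, 0.21 (SE 0.10) in tumor against GNP and 0.055 (SE 0.10) in tumor against hyperplasia, with limma adjusted p of 0.584, 0.393 and 0.893 over all 8589 genes. None passed the threshold of 0.05, and few genes did: 0.175% of those tested in hyperplasia against GNP, 0.244% in tumor against GNP and 0.0582% in tumor against hyperplasia. When every deposited summit was counted, scaled to equal totals, in place of the top 30000, the median of all genes moved to −0.07, −0.17 and −0.09 in these contrasts. Relative to that median Nfia was then at −0.073, −0.14 and −0.073, negative in all 3. The longest lists were all of NFIA libraries, with 290139 and 385466 summits in tumor and 362180 in hyperplasia. Scaling gives each summit of a long list less weight, and the part of this in the scaled values was not tested.

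Nfib spans chr4:82290173-82506751, on the same chromosome as Nfia, and its nearest protein-coding neighbours are Mpdz at 847 kb and Zdhhc21 at 292 kb. A smaller share of its summits lay inside the span than at the other 3 genes. The span is also a smaller part of its stretch than theirs, 216579 bp of 417 kb. Of the 261 summits 46.7% lay inside the span, near that part, 48.7% beyond the higher end and 4.60% beyond the lower end. By region, 8 of 20 were inside and 11 beyond the higher end, up to 97981 bp from it. Of the 4 regions present in all libraries, chr4:82399893-82400434 had the best worst rank (median 2389, worst 6373), followed by chr4:82384217-82384737 (5839 and 16216). The third, chr4:82513132-82513453, lay 6541 bp beyond the higher end, with a median rank of 4443. The end regions themselves differed: at the higher end chr4:82506151-82507247 was hit by 13 libraries, 3 of GNP, 5 of hyperplasia and 5 of tumor, and the nearest region to the lower end, chr4:82268366-82268707 at 21637 bp, by 9.

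Nfib had 27, 31 and 23 summits in the GNP preparations, 27, 24 and 27 in the hyperplasia preparations and 37, 33 and 32 in the tumor preparations. Every tumor preparation, with libraries paired by title, thus held more than any preparation of the other stages. The means were 34 ± 2.65 in tumor, against 26 ± 1.73 in hyperplasia and 27 ± 4 in GNP (SD, n = 3 preparations each). By the numbers in the deposited names, tumor libraries with 17 and 14 summits would form 1 preparation. GNP libraries with 18 and 14 would form another, so tumor would overlap GNP, though not hyperplasia. The log2 fold change was 0.38 (SE 0.12) for tumor against hyperplasia and 0.33 (SE 0.12) for tumor against GNP. Neither passed over all genes, with limma adjusted p of 0.291 and 0.243 (unadjusted 0.0121 and 0.0213). A higher count without overlap was seen in 4.27% of genes for tumor against hyperplasia and in 6.17% for tumor against GNP. With every summit counted and scaled the values were −0.014 in tumor against hyperplasia and −0.18 in tumor against GNP, which is 0.074 above and 0.016 below the median of all genes under that scaling. For hyperplasia against GNP the log2 fold change was −0.045 (SE 0.12), with a limma adjusted p of 0.911.

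One region of Nfib, chr4:82519937-82520255, 13345 bp beyond the higher end, was hit in 3 of 6 tumor libraries and in 0 of 12 libraries of the other stages. It was picked after its values were seen, and 3 libraries are the fewest with which a region was kept. The share of all regions with this pattern is not given here, so it is no result about Nfib. Stage and title date cannot be told apart for the tumors, whose 3 dates are shared with no other preparation.

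**Figure D3:**
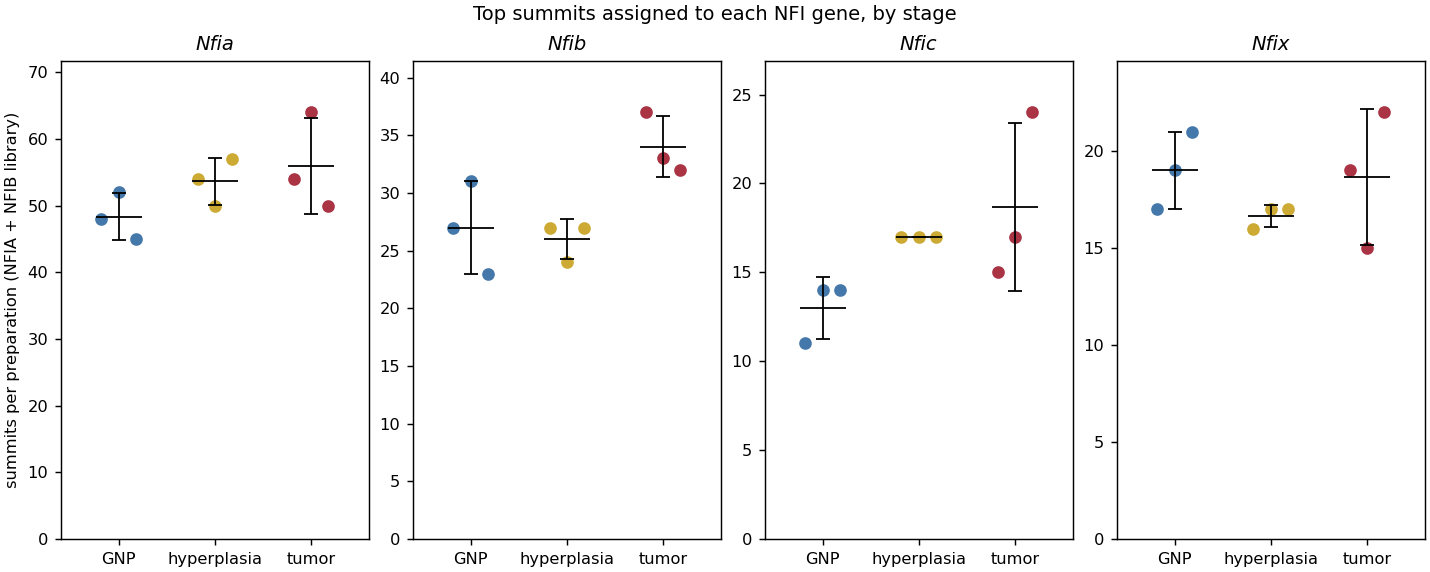
Kept summits assigned to each NFI gene per preparation (points, NFIA and NFIB libraries summed). The mean and SD of the 3 preparations of each stage are in black, and the vertical scales differ between genes. Libraries are paired by title, and by the numbers in the deposited names tumor would overlap GNP for Nfib and touch it for Nfic. The tumor points of Nfib (32 to 37) lie above all others of that gene, and the tumor (15 to 24) and hyperplasia (17 each) points of Nfic lie above its GNP points (11 to 14), neither of which passed the test over all genes. With every summit counted and scaled, and relative to the median of all genes, Nfic is lower in both later stages than in GNP, and Nfib in tumor is 0.074 above hyperplasia and 0.016 below GNP on the log2 scale.

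Nfic spans chr10:81396191-81431919 among close neighbours, with Smim24 1.11 kb and Celf5 27.3 kb away, so its stretch is short by construction. Of its 146 summits 73.3% lay inside the span and the rest beyond the higher end, at most 3916 bp away. The strand of its listed start is −, so the summits beyond the higher end lie upstream of the gene. Its 3 regions present in all libraries were chr10:81411650-81412701, with a median rank of 3134 and a worst rank of 11023, chr10:81416697-81417281 and, 3758 bp beyond the higher end, chr10:81435420-81435935. The region nearest the listed start, chr10:81425050-81425673, had its median summit 1825 bp downstream and was hit by 10 libraries.

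Nfic had 11, 14 and 14 summits in the GNP preparations, 17, 17 and 17 in the hyperplasia preparations and 15, 17 and 24 in the tumor preparations. With libraries paired by title, both later stages lay above GNP without overlap. By the numbers in the deposited names, tumor libraries with 7 and 7 summits would form 1 preparation. GNP libraries with 7 and 7 would form another, so tumor would no longer lie wholly above GNP, though hyperplasia would. The log2 fold change was 0.38 (SE 0.17) in hyperplasia against GNP, 0.49 (SE 0.17) in tumor against GNP and 0.10 (SE 0.17) in tumor against hyperplasia. None passed, with limma adjusted p of 0.389, 0.263 and 0.877 (unadjusted 0.0621, 0.0255 and 0.571). A higher count without overlap was seen in 5.27% of genes for hyperplasia against GNP. With every summit counted and scaled all 3 were negative (−0.25, −0.55 and −0.30), also relative to the median of all genes (−0.18, −0.38 and −0.21). Within the title dates that hyperplasia and GNP share, the log2 ratio of mean summits at Nfic, hyperplasia over GNP, was 0.43 for the first date (n = 2 preparations each) and 0.27 for the second (n = 1 each).

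Region chr10:81424473-81424985 was hit in 0 of 6 GNP, 4 of 6 hyperplasia and 4 of 6 tumor libraries. Its neighbour chr10:81425050-81425673 was hit in 2, 4 and 4 libraries of these stages and chr10:81401711-81402262 in 2, 4 and 5. Each missed the rule for a gained region that is given with the comparison by region, and each was low in the lists, with median ranks of 21387, 20168 and 15278.

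Nfix spans chr8:84704712-84801238, and its lower end touches Lyl1. All of its 163 summits and 12 regions lay inside the span. Region chr8:84793973-84794287 held the best single rank at the 4 genes, 77, and its median rank of 715 was close to the 713 of the leading Nfia region. It lay 14068 bp upstream of the nearest listed start. Region chr8:84773977-84774308, with a median rank of 1506 and a worst rank of 4233, lay 708 bp upstream of the start of the second promoter shown above, outside its window. The region nearest a listed start of Nfix, chr8:84775050-84775290 at 665 bp downstream of it, was hit by only 3 libraries, with a median rank of 25090. The other regions present in all libraries, chr8:84708972-84709445 and chr8:84712159-84712669, lay near the lower end, with median ranks of 6364 and 9059.

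Nfix had 17, 19 and 21 summits in the GNP preparations, 16, 17 and 17 in the hyperplasia preparations and 19, 15 and 22 in the tumor preparations. The stages overlapped. The log2 fold change was −0.18 (SE 0.14) in hyperplasia against GNP and −0.036 (SE 0.14) in tumor against GNP. In tumor against hyperplasia it was 0.14 (SE 0.14). Limma adjusted p was 0.655, 0.956 and 0.754 in these contrasts. With every summit counted and scaled the log2 fold changes were −0.30, −0.65 and −0.35. Relative to the median of all genes they were −0.23, −0.49 and −0.27. None passed under that scaling either, with limma adjusted p of 0.822, 0.224 and 0.856. Within the first and the second title date that hyperplasia and GNP share, the log2 ratio of mean summits, hyperplasia over GNP, was −0.12 and −0.30 at Nfix, 0.056 and 0.34 at Nfia, and −0.18 and 0.23 at Nfib, where the direction differed between dates. Region chr8:84794335-84794856, beside the leading one, was hit in 4 of 6 GNP, 4 of 6 hyperplasia and 2 of 6 tumor libraries.

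Over the 8589 genes the stage test called 15 in hyperplasia and 21 in tumor, each against GNP, and 5 in tumor against hyperplasia, with 1148, 1272 and 971 at an unadjusted p under 0.05. Of the NFI genes 0 of 4 passed in each of the 3 contrasts, and at an unadjusted p under 0.05 there were 0, 2 (Nfib and Nfic) and 1 (Nfib). The median log2 fold change of the 4 genes was 0.05, 0.27 and 0.12 in these contrasts, against 0 for all genes tested. Summits per gene are small whole numbers, and a fold change on the scale of log2(summits + 0.5) understates differences of genes with few.

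**Figure D4:**
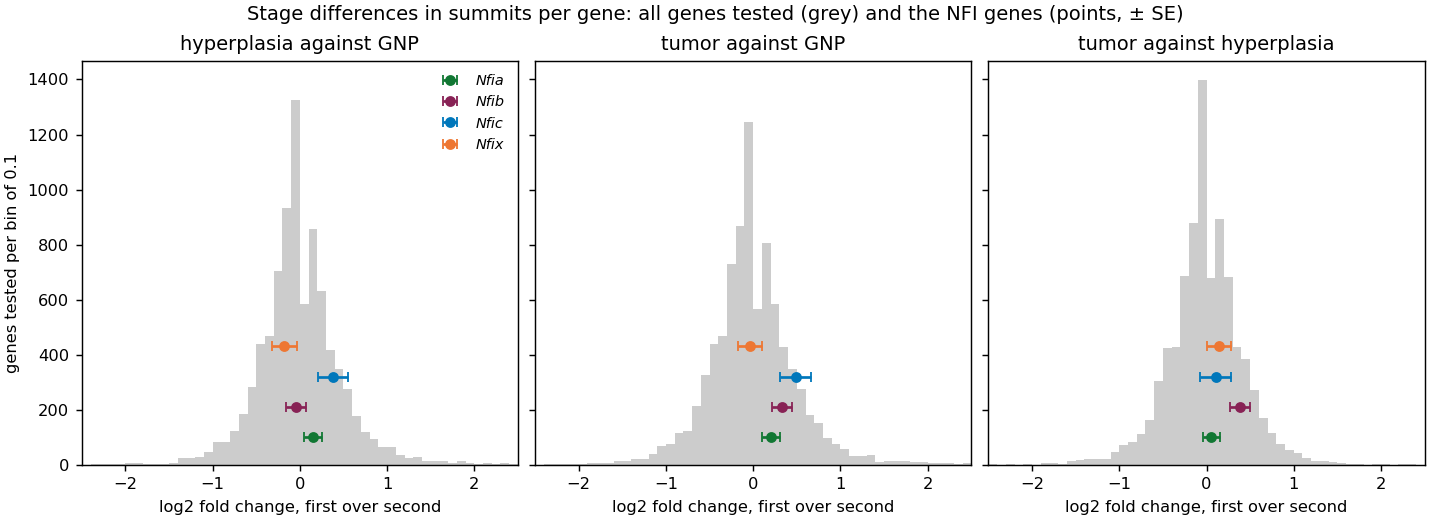
Log2 fold change in summits per gene for the 3 stage contrasts, as a histogram over the 8589 genes tested (grey, genes per bin of 0.1) and as points with SE bars for the NFI genes, whose heights only separate them. The points lie between −0.18 and 0.49, within the spread of all genes, and, with every summit counted and scaled, those above 0 turn negative relative to the median of all genes except that of Nfib in tumor against hyperplasia (0.074).

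Stages were also compared by region. A region counted as gained where 5 or 6 of the 6 libraries of the later stage and 0 or 1 of the earlier stage had a summit there, and as lost in the opposite case. Over the series 2.15% of regions were gained and 2.78% lost in hyperplasia against GNP, 2.28% and 2.52% in tumor against GNP, and 1.2% and 1.08% in tumor against hyperplasia. Of the 76 regions at the NFI genes 0 were gained in any contrast and 1 was lost, in tumor against GNP. These numbers are below the shares over the series. The difference was not tested, and with so few regions it is no result about the NFI genes. The lost region lay inside Nfib, at chr4:82415811-82416338, with a summit in 1 of 6 tumor libraries and 2 of 6 hyperplasia libraries, against 5 of 6 GNP libraries. Its best summits had a median rank of 15818, and it was no longer called with the top 15000 summits or with all summits. With all summits another region counted as lost in tumor against GNP, chr4:82271477-82272090 beyond the lower end of Nfib (1 of 6 tumor libraries, against 5 of 6 GNP libraries). Without the second NFIA library of hyperplasia the rule was loosened to 4 of the 5 hyperplasia libraries left, and 2 regions then counted as gained in hyperplasia against GNP, chr10:81424473-81424985 at Nfic (4 of 5 libraries, against 0 of 6 in GNP) and chr4:82589572-82589911 beyond Nfib (4 of 5, against 1 of 6). By the same count 1 region of Nfia, chr4:97610122-97610571, was gained in tumor against hyperplasia, with 5 of 6 tumor libraries, against 1 of 5 hyperplasia libraries. Over the series 1526 of the 41998 regions were then gained in hyperplasia against GNP and 596 in tumor against hyperplasia. Beside these, the 2 and 1 of 76 are no result about the NFI genes.

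Presence in every library of a stage was seen at 28 of the 76 regions in GNP, 20 in hyperplasia and 29 in tumor. Over all regions of the series the shares were 30.3% in GNP, 23.4% in hyperplasia and 25.0% in tumor. No GNP library had a summit in 11 of the 76, no hyperplasia library in 4 and no tumor library in 2. The remaining count, 60 hit at every stage, has no share of all regions beside it. Over all regions 12.4% had no GNP library, 10.3% no hyperplasia library and 9.22% no tumor library.

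**Figure D5:**
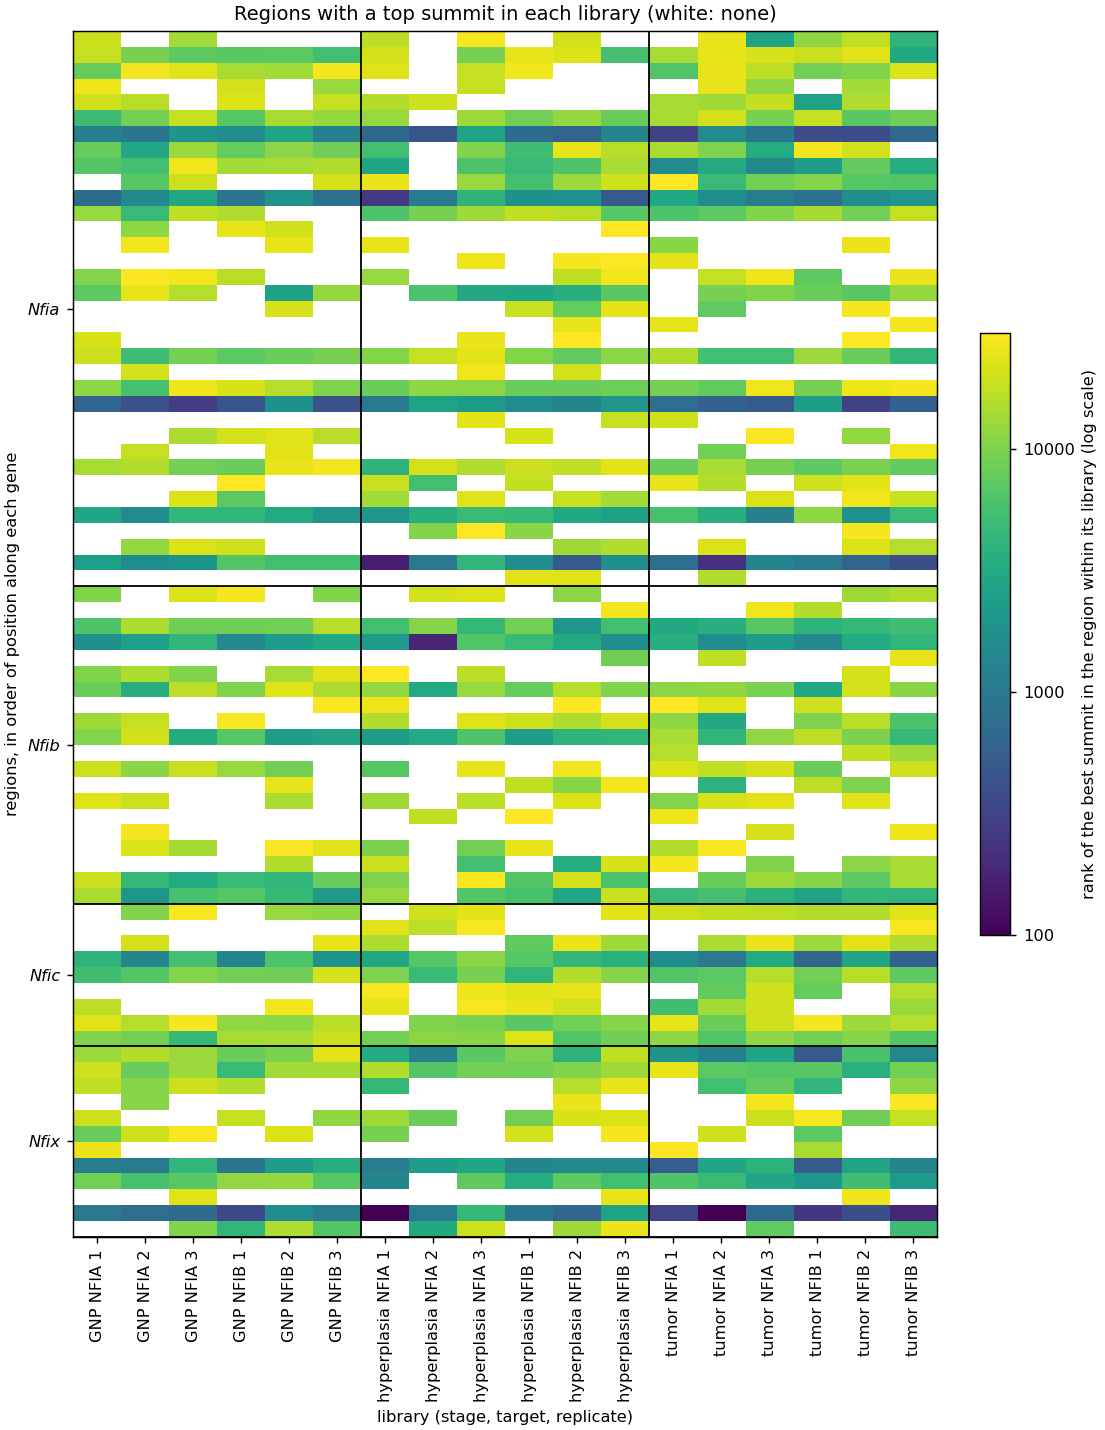
The 76 regions at the NFI genes (rows, in order of position along each gene) in the 18 libraries (columns, by stage, target and replicate), colored by the rank of the best summit of the region within its library (log scale, dark is high in the list) and white where no kept summit was present. Rows dark across all columns are the leading regions of Nfia and Nfix, and the column of the second NFIA library of hyperplasia has more white cells than its neighbours.

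No NFI gene differed between NFIA and NFIB libraries past the threshold. In the 9 NFIA libraries Nfia had 18 to 32 summits (median 27), against 21 to 32 (median 26) in the 9 NFIB libraries. Nfib had 10 to 20 (median 16) in NFIA libraries, against 9 to 18 (median 14) in NFIB libraries. Nfic had 6 to 10 (median 8) in NFIA libraries, against 5 to 14 (median 8) in NFIB libraries. Nfix had 6 to 13 (median 9) in NFIA libraries, against 7 to 11 (median 9) in NFIB libraries. The targets overlapped for each gene, and log2 fold changes, NFIA over NFIB, were −0.01 (SE 0.10) for Nfia, 0.16 (SE 0.12) for Nfib, −0.01 (SE 0.12) for Nfic and 0.03 (SE 0.13) for Nfix. Limma adjusted p, with stage as a term, ran from 0.889 to 1. Of the 8589 genes tested per library 0% passed (499 at an unadjusted p under 0.05, none of them an NFI gene). With every summit counted and scaled, each NFI gene was lower in NFIA libraries. The log2 fold changes were then −0.39 for Nfia, −0.40 for Nfib, −0.54 for Nfic and −0.77 for Nfix. Relative to the median of all genes they ran from −0.29 to −0.67. No NFI gene passed there, with limma adjusted p from 0.375 to 0.415. The size of the target differences thus depended on which summits were counted. The longest lists were all of NFIA libraries, and scaling gives each of their summits less weight.

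By region, the largest target difference was in 1 of a pair of regions beyond the higher end of Nfib. The 2 regions lie so close that widening summits by 250 bp on each side merges them into 1. Targets are those of the titles, which the deposited names of 6 libraries contradict. Region chr4:82533298-82533564 was hit in 1 of 9 NFIA libraries, against 6 of 9 NFIB libraries, and the region just below it, chr4:82532206-82533227, in 8 of 9 NFIA libraries, against 5 of 9 NFIB libraries. A difference of 5 or more libraries between the targets was seen in 1 of the 76 regions, and in 0.867% of all regions. Of the 76, 21 were hit by more NFIA libraries, 26 by more NFIB libraries and 29 by as many of each. Whether stage differences depended on the target was asked with the interaction of stage and target, for which limma gave F of 2.08 for Nfia, 0.807 for Nfib, 0.130 for Nfic and 2.16 for Nfix, with adjusted p of 0.983 or above, and 0% of genes passed (350 at an unadjusted p under 0.05). In hyperplasia the NFIA libraries of Nfia held 24, 18 and 31 summits, against 30, 32 and 26 in the NFIB libraries, with the lowest value in the library that stood apart.

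The limit of 100 kb left out summits in the gene-poor surroundings of Nfia and Nfib. Farther away but still nearest to them were 88 kept summits for Nfia and 104 for Nfib, over all libraries, and 6 and 8 regions. At Nfia chr4:97418280-97419018 and chr4:97439335-97440050, 159417 and 138374 bp from the lower end, were hit by all 18 libraries, and at Nfib chr4:82643176-82644125, 136899 bp from the higher end, was too. For Nfic and Nfix there were none. The lowest score kept at the 4 genes was 3.46 and the highest score of a summit left out for its rank was 9.74, since the last score kept differed between libraries.

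Genes linked to the NFI family were described in the same way. The list held 6 genes known as regulators of Nfi genes or of NFI action in development (Sox9, Pou3f2, Rest, Etv1, Nfatc4, Zeb1) and 12 known as regulated by NFI proteins, among them the astrocyte genes Gfap and Slc1a3 and the granule neuron gene Gabra6. Of the 18 genes 13 had enough summits to be tested, and 0 of 13 passed in any contrast by limma. At an unadjusted p under 0.05 there were 2 (Cdh2 and Zeb1) in hyperplasia against GNP, 3 (Apcdd1, Slc1a3 and Zeb1) in tumor against GNP and 2 (Apcdd1 and Slc1a3) in tumor against hyperplasia. Their median log2 fold change was 0.12, 0.20 and 0.03, against 0 over all genes. Zeb1, which encodes a repressor of transcription that holds granule progenitors in an undifferentiated state, came closest, with 7.33 ± 0.577 summits in GNP, 11.7 ± 2.08 in hyperplasia and 13.3 ± 2.08 in tumor preparations (limma adjusted p 0.170 for hyperplasia against GNP and 0.0816 for tumor against GNP). Slc1a3, a glutamate transporter of astrocytes and Bergmann glia, had 8.67 ± 2.89 in tumor, against 14.7 ± 2.08 in hyperplasia and 13.3 ± 0.577 in GNP preparations (limma adjusted p 0.268 and 0.223). Sox9, whose product acts with NFIA in making astrocytes, had 11 ± 1, 11 ± 1 and 12.7 ± 1.53 summits in GNP, hyperplasia and tumor preparations. Aqp4 had no summit in any library, Efnb1 lies on the X chromosome and was not among the genes counted, and Nfatc4, Fabp7 and Gabra6 had too few summits to test.

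Among the 1541 genes tested that averaged 8 or more summits per preparation, those whose numbers moved most like each NFI gene over the 9 preparations were described by Pearson's r of log2(summits + 0.5). They were Ebf2 (r = 0.843), Tanc1 (0.842) and Rassf3 (0.834) for Nfia, and Apcdd1 (0.907), Maf (0.896) and Camk2b (0.881) for Nfib. For Nfic they were Ccbe1 (0.897), Bhlhe40 (0.896) and Fer (0.891), and for Nfix Sez6 (0.850), Macrod2 (0.833) and Mapre2 (0.822). These are the highest of 1541 values over the same 9 preparations, which share libraries and score limits. Apcdd1, a Wnt antagonist also on the list of NFI-regulated genes, had 15.7 ± 1.15 summits in tumor, against 11 ± 1.73 in hyperplasia and 11.3 ± 2.08 in GNP preparations, with limma adjusted p of 0.331 and 0.260. Among the NFI genes themselves r was 0.55 between Nfia and Nfib and −0.67 between Nfia and Nfix over the 9 preparations, and from 0.030 to 0.28 for the other pairs.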

How the data were processed

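Per the submitters' processing notes Bowtie2 and MACS2 were used with the build mm10, both without a version; no source names a control library. The deposited lists hold summits called in each library separately, 1 base wide, with the −log10 p or q value that the authors' peak caller gave (which of the 2 is not stated; the lowest is just above 2.00). Stage, target and the pairing of libraries into preparations came from the sample titles.

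Equal scores were put in random order from a fixed seed (1, alternative 2). Summits inside overlapping spans went to the shorter span. Genes came from the RefSeq table of GRCm38.p6, the build named mm10, and all 4 members matched by symbol; it gives no exons, so positions are set against gene spans and listed starts, without exon or intron. Nfib is used without strand. Coordinates are 1-based. For stage, limma 3.58.1 (R 4.3.3, trend, empirical Bayes) was run on log2(summits + 0.5) per preparation, with all 9 preparations in 1 model and no term but stage, for genes averaging 2 summits or more; target and interaction were tested per library, for genes averaging 1 or more. Adjustment was Benjamini-Hochberg over all genes tested, threshold 0.05. Each test was tested on simulated data. Other steps used pandas 2.3.3, numpy 2.4.6, SciPy 1.17.1 and matplotlib 3.10.9 in Python 3.11.15.

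The members and gene lists were chosen with earlier results of these data known. Named were the members, their nearest neighbours, the 3 genes most like each in number over preparations, and list genes; named regions were those nearest a listed start (for Nfib, without one, nearest each end), the 3 per gene with the best worst rank among those in all 18 libraries, and those gained or lost; other regions named were chosen after their values were seen. Region sequences were not used here, since no genome was at hand. The alternatives were the number of kept summits, the seed, scaling of all summits, the distance, the pseudocount, the filter, leaving out chromosome 6 or a preparation, the replicate block, the date, each target alone, and the target as the deposited name gives it.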

Additional observations from a re-analysis of the deposited data

How the results depend on the processing

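No NFI gene passed in any of 388 alternative fits of 20 results, with a smallest adjusted p of 0.177. For genes past the threshold in hyperplasia against GNP the count of 15 became 43 with the top 15000 summits, 2 with the other seed, 0 with every summit counted and scaled to equal totals, 3 with pseudocount 2, 83 with no filter, 0 without chromosome 6, 2 with title date as a term, 25 with NFIA and 55 with NFIB libraries only, and 1 to 10 without 1 preparation. In tumor against GNP 21 became 46 with the top 15000, 191 scaled, 39 within 20 kb, 124 with no filter, 63 with NFIB only, 39 with the second hyperplasia preparation as 2 times its NFIB library, and 1 to 25 without 1 preparation. In tumor against hyperplasia 5 became 10 with the top 15000, 0 scaled, 41 with no filter, 1 without chromosome 6, 10 with NFIA only, 17 with NFIB only, 8 with the doubled NFIB library, and 1 to 6 without 1 preparation. For NFIA against NFIB 0 became 1 with the top 15000, 1 with no filter, 6 in the 12 libraries with agreeing labels, 5 by the deposited name, and 0 to 2 without 1 preparation. For the interaction 0 became 5 (top 15000), 4 (seed), 1 (scaled), 2 (20 kb), 1 (pseudocount 2), 4 (no filter), 1 (without chromosome 6), and 0 to 7 without 1 preparation. The cause was not tested.

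With the replicate block the stage counts were 0, 1 and 1, and 0 for target and interaction. Preparations of the same number at different stages deviated together with r of 0.000113 to 0.0803 over 9 pairs, and the NFIA and NFIB libraries of a preparation with −0.0822 to 0.0753, so the data do not show that the numbers pair the samples.

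Scaling all summits moved the median log2 fold change of all genes to −0.07, −0.17 and −0.09 for stage and −0.10 for target, so part of each turn is common to all genes. It turned Nfic to −0.25 and Nfia to −0.14 in hyperplasia against GNP, Nfic to −0.55, Nfib to −0.18 and Nfia to −0.30 in tumor against GNP, Nfic to −0.30, Nfib to −0.014, Nfia to −0.16 and Nfix to −0.35 in tumor against hyperplasia, and Nfib to −0.40 and Nfix to −0.77 in NFIA against NFIB. Other turns were small: in hyperplasia against GNP Nfib 0.0020 within 20 kb, 0.092 with NFIB only and 0.027 with the doubled library, Nfix 0.080 with NFIB only and Nfia −0.089 with NFIA only; in tumor against GNP Nfix 0.15 with the top 15000; in tumor against hyperplasia Nfic −0.16 with the top 15000, Nfia −0.13 and Nfix −0.092 with NFIB only and Nfia −0.062 with the doubled library; in NFIA against NFIB Nfia 0.079 and Nfix −0.050 with the top 15000, and Nfix −0.073 with agreeing labels and −0.13 by the deposited name. Without 1 preparation the sign turned for Nfib in hyperplasia against GNP (−0.15 to 0.058), Nfix in tumor against GNP (−0.16 to 0.11), Nfia (−0.044 to 0.13) and Nfic (−0.088 to 0.24) in tumor against hyperplasia, and Nfix (−0.029 to 0.14), Nfic (−0.071 to 0.048) and Nfia (−0.058 to 0.086) in NFIA against NFIB.

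Regions gained and lost were 905 and 1167 in hyperplasia against GNP, and 525 and 730 with the top 15000, 2052 gained with all summits and 1526 when the second NFIA library of hyperplasia was left out, an alternative chosen after seeing the data. In tumor against GNP 957 and 1058 became 587 and 628, and 1627 and 1639 with all summits. In tumor against hyperplasia 452 lost became 293, 990 with all summits and 930 without that library. Without 1 preparation, where the rule is looser, they were 905 to 2217 gained and 1167 to 2207 lost, 957 to 2234 and 1058 to 2145, and 506 to 1522 and 452 to 1534. At the NFI genes 2 were gained in hyperplasia against GNP with all summits (both at Nfib) and 2 without that library. In tumor against GNP 1 was gained with the top 15000 and 1 without chromosome 6 (both at Nfia), and 0 were lost with the top 15000. With all summits 1 was lost, a different region of Nfib than in the main setting. In tumor against hyperplasia 1 was gained with the top 15000 (at Nfia) and 1 without that library. Without 1 preparation 0 to 2 were gained and 0 to 2 lost, 0 to 3 and 1 to 2, and 0 to 2 and 0 to 1. Summits with scores under the last one kept, and reads below the caller's limit, are not seen.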
